A study of Mus musculus with 6 samples.

Results

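The genes described here encode the proteins of podosomes and of the actin ring, and they were taken as a list of 40 names that covers kinases, adhesion proteins, actin nucleators and their regulators. Of these names, 39 matched a gene symbol in the deposited table of 23504 genes, and the last one, Tks4, was taken as Sh3pxd2b, the gene that encodes it. All 40 genes had a mean of at least 1 FPKM (fragments normalized to gene length and to the fragments counted in the library) and were among the 10965 genes tested.

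By RNA-seq, mRNA was measured in bone marrow-derived macrophages (BMMs), cells grown from mouse bone marrow, in 6 libraries. The cells came from male C57BL/6 mice aged 6 to 8 weeks. The DASA-58 group of 3 libraries received DASA-58, a small-molecule activator of the glycolytic enzyme PKM2, and the DMSO group of 3 libraries received an equal volume of DMSO, the solvent. RNA was taken after 3 days. RANKL, the cytokine that turns BMMs into osteoclasts, was given to both groups by one passage of the study, whereas another names it for the treated group and leaves the DMSO group unclear. The methods also write DASA-48 where the labels write DASA-58, and no concentration is given for this experiment. No source used here says whether the 3 libraries of a group came from separate animals or cultures, so p-values measure only the spread between these libraries, which may be technical.

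Podosomes are short-lived columns of branched actin, surrounded by a ring of integrins and adaptor proteins, by which macrophages and osteoclasts hold on to a surface. In a mature osteoclast they gather into a belt, and on bone into the sealing zone, which shows as an actin ring and closes off the area that is resorbed. The kinases Src and Pyk2 signal from the integrins, the WASP family switches on the Arp2/3 complex to branch the filaments, and small GTPases such as Rac and Cdc42 with their exchange factors set where and when this happens. The comparison asks how the mRNAs of this machinery differed between cells with and without the PKM2 activator.

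Most of this machinery was at nearly the same mRNA level in both groups, and 3 genes stood lower. Src, the kinase of the sealing zone, was at 66.7% of its DMSO level, Dock5, an exchange factor for Rac, was at 67.0%, and Cttn, which encodes the branch-stabilizing protein cortactin, was at 78.4%. Ptk2b, the gene of Pyk2, was higher, at 110% of DMSO. Src and Dock5 passed in all 18 alternative fits of the same data and Cttn in 12. Ptk2b passed in 7, and in 0 of the 6 that left out 1 library. The other 36 genes did not pass the test, among them all 7 subunits of the Arp2/3 complex. Most genes tested did not pass either, with 7.28% of them lower and 4.24% higher. In such bulk samples fewer cells of a type and less RNA per cell cannot be told apart, and osteoclast markers, given at the end, were lower in the same libraries.

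These counts were read against all genes tested. With limma on log2(FPKM + 1) and an adjusted p under 0.05 (Benjamini-Hochberg over the 10965 genes), 3 of the 40 genes (7.5%) were lower with DASA-58, beside 7.28% of all genes tested, and 1 (2.5%) was higher, beside 4.24%. At an unadjusted p under 0.05, 14 of the 40 passed, beside 27.8% of all genes tested. In 14 genes (35.0%) every DASA-58 library lay below every DMSO library, against 21.6% of all genes tested, and in 5 genes (12.5%) every DASA-58 library lay above, against 11.8%. In the remaining 21 genes the groups overlapped.

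The median log2 fold change of the 40 genes was -0.02, and the median over all genes tested was -0.03. The median size of the change, without its sign, was 0.05 in the 40 genes and 0.08 in all genes tested. The DASA-58 mean lay between 90% and 110% of the DMSO mean in 34 of the 40 genes (85.0%), a band that held 70.7% of all genes tested. The 6 genes outside it were Src, Dock5, Cttn, Vcl, Sh3pxd2a and Vav3. These comparisons were not matched for level, and the listed genes had a higher median level than all genes tested, as given below. A fold change on the log2(FPKM + 1) scale understates the change of genes at a few FPKM, so percentages of the DMSO mean are given beside it.

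**Figure D1:**
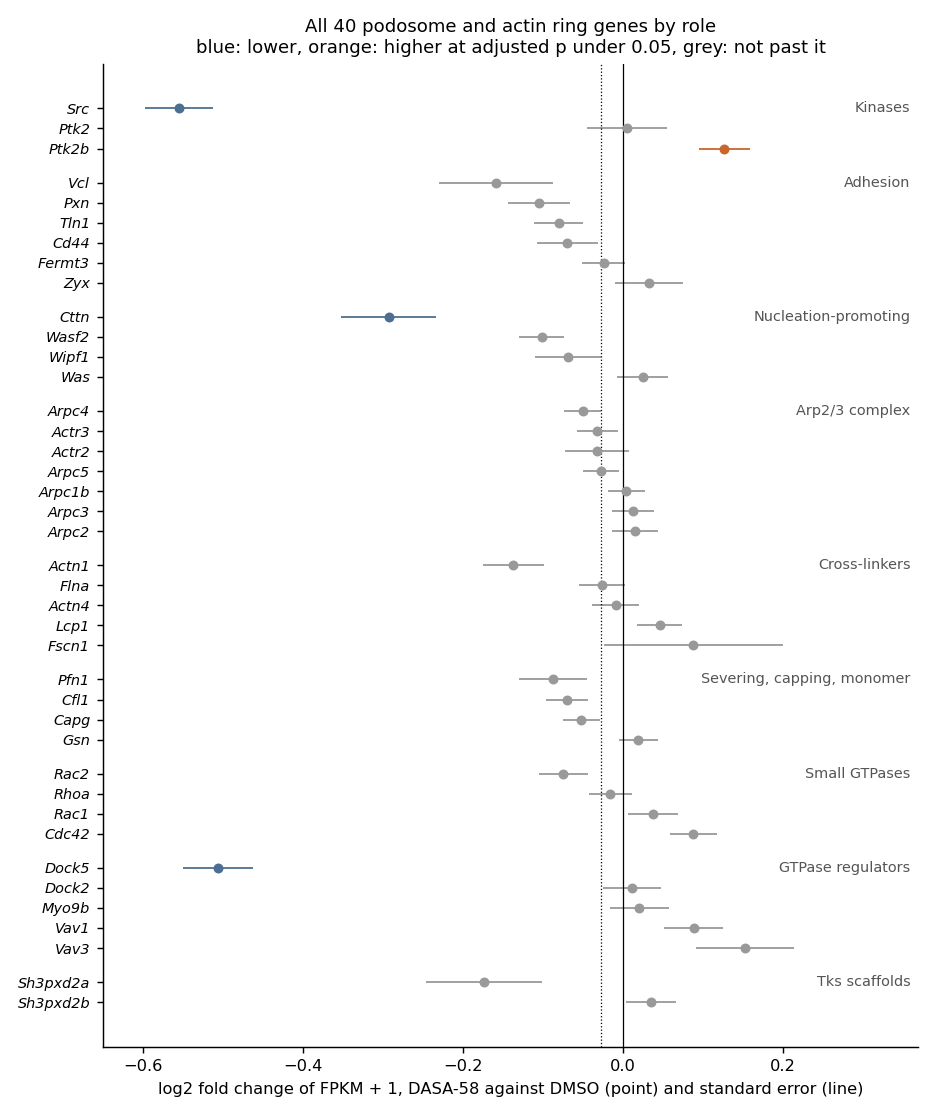
The log2 fold change of FPKM + 1 (DASA-58 against DMSO, horizontal axis, 3 libraries per group) with its standard error is drawn for each of the 40 genes, grouped by role, with a solid line at 0 and a dotted line at the median of all genes tested (-0.03). Src (-0.55), Dock5 (-0.51) and Cttn (-0.29) stand apart on the left in blue, Ptk2b (0.13) is the only gene in orange, and the Arp2/3 subunits lie between -0.05 and 0.02.

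The transcripts were abundant. Over the 40 genes the median DMSO level was 69.1 FPKM, while the median level over all genes tested was 8.26 FPKM. The levels, which FPKM gives per length, ranged from 2.44 FPKM for Vcl to 876 FPKM for Cfl1, and 16 genes had a mean of at least 100 FPKM. Each value rested on between 158 and 40023 fragments, recovered from the steps of the FPKM values, in libraries of 18191560 to 18968556 fragments. Src, Dock5 and Cttn, with DMSO means of 22.7, 8.67 and 5.75 FPKM, were below the median level of the list.

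**Figure D2:**
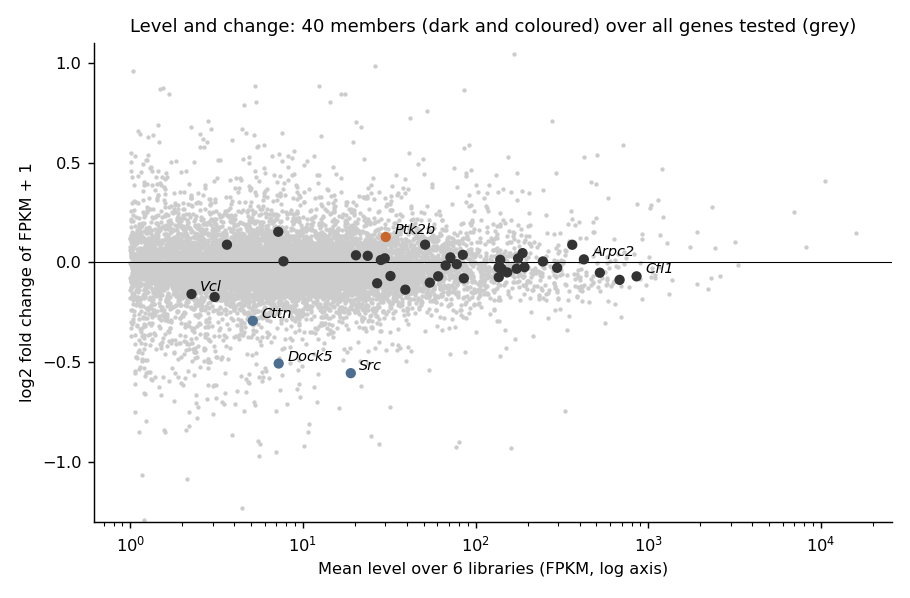
Each point is a gene, with its mean level over the 6 libraries (FPKM, log axis) against its log2 fold change of FPKM + 1. The 40 genes are dark or coloured (blue lower, orange higher) and the other genes tested are grey, with 1 of them beyond the axis. The abundant genes of the list, such as Cfl1 (-0.07) and Arpc2 (0.02), lie close to 0, and Src, Dock5 and Cttn lie below most genes of like level.

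The kinases of the list, Src, Ptk2b and Ptk2, act next to the integrins. Src is the tyrosine kinase that phosphorylates cortactin and other podosome proteins, and osteoclasts without it form no ruffled border. Its level was 23.7, 22.3 and 22.2 FPKM in DMSO replicates 1, 2 and 3 and 15.8, 14.6 and 15.0 FPKM in DASA-58 replicates 1, 2 and 3. All DASA-58 libraries were well below all DMSO libraries, with 1769 to 1897 fragments per DMSO library and 1163 to 1304 per DASA-58 library. The log2 fold change was -0.55 (SE 0.04, adjusted p = 0.0003 by limma), and Src passed the test in all 18 alternative fits.

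Among the genes that passed the test, only Src had a promoter window to search, and Dock5, Cttn and Ptk2b had none. The sequence before an annotated start site within Src is therefore shown. It is taken from a RefSeq table of promoters on GRCm38.p6, chr2:157424043-157424279 on the plus strand, and runs up to the first exon of a protein-coding Src transcript that starts in this window. The capitals mark the match to the PU.1 motif.

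Src: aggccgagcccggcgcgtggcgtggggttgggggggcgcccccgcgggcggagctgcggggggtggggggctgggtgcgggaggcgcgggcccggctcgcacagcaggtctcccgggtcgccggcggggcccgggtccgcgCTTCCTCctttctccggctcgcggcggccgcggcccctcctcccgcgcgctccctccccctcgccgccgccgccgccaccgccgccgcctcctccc

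The stretch is 237 bases long and 84.8% G and C. In the GENCODE annotation of the same build it lies in the first intron of a longer Src transcript, and its part from position 157424116 on is also exon of a Src transcript that is not annotated as coding. The marked match lies beyond that position. The motifs were searched on both strands of the whole window of 300 bases, which runs from 250 bases before the RefSeq start to 50 after it. The window held 1 match to the PU.1 motif (GAGGAAG), on the minus strand at bases 142 to 148, and no match to AP-1 (TGANTCA), NFAT (TGGAAA), the E-box (CACGTG) or the CArG box. PU.1 is a transcription factor of the myeloid lineage. Its motif occurred in 13.6% of the 32851 windows of the table. Counted by gene, it was in windows of 8 of the 32 listed genes that had one (25.0%) and of 16.5% of all genes tested that had one, the 8 including Src, Vav1 and Dock2. The other motifs were found in windows of 3 (AP-1), 4 (NFAT), 1 (E-box) and 2 (CArG box) of these 32 genes, which is 9.38%, 12.5%, 3.13% and 6.25%, and in windows of 5.88%, 19.3%, 12.3% and 1.46% of the genes tested. Over all windows of the table their shares were 7.81%, 21.4%, 7.15% and 1.63%. Such matches describe letters in a window and are no evidence of binding.

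Ptk2b encodes Pyk2, the focal adhesion kinase relative that is prominent in osteoclasts and lies in podosomes. Its level was 29.6, 28.1 and 28.7 FPKM in DMSO replicates 1, 2 and 3 and 31.4, 32.2 and 31.1 FPKM in DASA-58 replicates 1, 2 and 3. Each DASA-58 library was above each DMSO library, though by little, and the log2 fold change was 0.13 (SE 0.03, adjusted p = 0.043 by limma). Ptk2b passed the test in 7 of 18 alternative fits and in none of the 6 that left out 1 library, where its adjusted p by limma was between 0.065 and 0.13. Ptk2, which encodes focal adhesion kinase itself, was at 7.46, 7.49 and 8.14 FPKM with DMSO and 7.81, 8.01 and 7.37 FPKM with DASA-58, so that the groups overlapped (log2 fold change 0.01, SE 0.05).

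**Figure D3:**
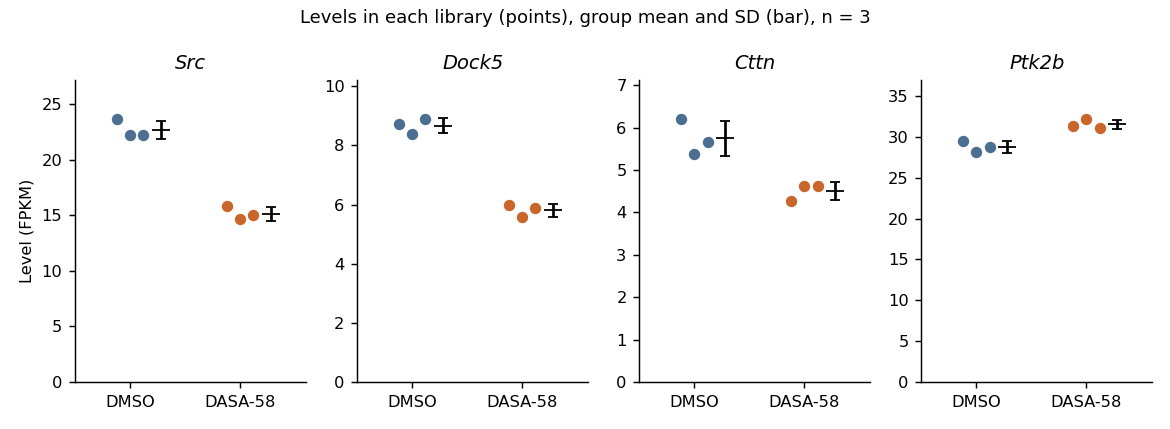
The level in FPKM (vertical axes, from 0) of Src, Dock5, Cttn and Ptk2b is drawn for each library as a point, with the group mean and its SD (n = 3) beside the points. The DASA-58 libraries are below all DMSO libraries for Src (14.6 to 15.8 against 22.2 to 23.7), Dock5 and Cttn, and above them for Ptk2b (31.1 to 32.2 against 28.1 to 29.6).

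The adhesion proteins link integrins to actin, and 0 of 6 passed the limma test, with 2 at an unadjusted p under 0.05 and 2, Pxn and Tln1, under voom. Talin (Tln1), kindlin-3 (Fermt3), paxillin (Pxn), vinculin (Vcl) and zyxin (Zyx) sit at the ring of the podosome, and CD44 is a receptor for hyaluronan at its core. Their log2 fold changes ran from -0.16 (SE 0.07) for Vcl to 0.03 (SE 0.04) for Zyx, with a median of -0.07. In Pxn, Vcl and Tln1 every DASA-58 library lay below every DMSO library, at 92.7%, 85.4% and 94.6% of DMSO. Such genes made up 50.0% of these 6 and 21.6% of all genes tested. The 6 genes differed more in level than in change, from 2.44 FPKM for Vcl to 193 FPKM for Fermt3 with DMSO.

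Among the 4 proteins that start or hold actin branches, Cttn was lower. Cortactin binds the Arp2/3 complex at branch points and is a substrate of Src. Cttn was at 6.20, 5.38 and 5.66 FPKM in DMSO replicates 1, 2 and 3 and at 4.27, 4.63 and 4.62 FPKM in DASA-58 replicates 1, 2 and 3, without overlap. The log2 fold change was -0.29 (SE 0.06, adjusted p = 0.020 by limma) on 337 to 477 fragments per library. Cttn passed in 12 of 18 alternative fits, and it no longer passed without DMSO replicate 1, DASA-58 replicate 1 or DASA-58 replicate 3, with an adjusted p by limma of 0.061, 0.068 and 0.053.

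The other 3 proteins of this role did not pass. Was, the WASP of blood cells, had a log2 fold change of 0.03, its partner Wipf1 had -0.07, and Wasf2, the WAVE protein of lamellipodia, had -0.10 (SE 0.03, adjusted p = 0.061 by limma). Wasf2 was lower in every DASA-58 library, at 93.1% of DMSO, and it passed in 2 of 18 alternative fits.

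The Arp2/3 complex, which grows a new actin branch from the side of a filament, differed little between the groups. Its 7 subunits stood between 138 and 421 FPKM with DMSO, their log2 fold changes lay between -0.05 and 0.02, and 0 of 7 passed, also at an unadjusted p under 0.05 and under voom. Summed over the subunits, the level was 1572 to 1584 FPKM in the DMSO libraries. In the DASA-58 libraries it was 1560 to 1569 FPKM, without overlap, which is 99.3% of DMSO. The SE of single subunits was at most 0.04 on the log2 scale. Actr3, Arpc4 and Arpc5 (42.9% of the 7) were lower in every DASA-58 library, beside 21.6% of all genes tested. They were at 97.8%, 96.6% and 98.2% of DMSO.

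The cross-linkers bundle filaments or join them into networks, and 0 of 5 passed, with 1 at an unadjusted p under 0.05. That gene was Actn1, which encodes an alpha-actinin, at 41.8, 41.3 and 40.2 FPKM with DMSO and 36.2, 39.1 and 36.5 FPKM with DASA-58. All its DASA-58 values were below its DMSO values (log2 fold change -0.14, SE 0.04, adjusted p = 0.057 by limma), and it passed in 4 of 18 alternative fits, among them the fit without DASA-58 replicate 2 (adjusted p = 0.037 by limma). Its relative Actn4 was at 79.6, 78.1 and 76.4 FPKM with DMSO and 77.6, 79.1 and 75.9 FPKM with DASA-58. Fscn1 (fascin), Flna (filamin A) and Lcp1 (L-plastin) had log2 fold changes of 0.09, -0.03 and 0.05, and their groups overlapped.

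The 4 proteins that cut, cap or feed filaments ranged from 175 FPKM for Gsn to 876 FPKM for Cfl1 with DMSO, and 0 of 4 passed, with 1 at an unadjusted p under 0.05. Gsn encodes gelsolin, which severs and caps filaments and is a known part of the osteoclast podosome. It was at 174, 176 and 175 FPKM with DMSO and 178, 180 and 174 FPKM with DASA-58. Capg, its capping relative, was at 531, 543 and 527 FPKM with DMSO and 510, 514 and 521 FPKM with DASA-58, lower in every DASA-58 library but at 96.5% of DMSO. Cfl1 (cofilin) and Pfn1 (profilin) had log2 fold changes of -0.07 and -0.09, and Cfl1 passed in 3 of 18 alternative fits (voom among them) and Pfn1 in 1, that with voom.

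Of the small GTPases, the switches that steer actin, 0 of 4 passed, with 2 at an unadjusted p under 0.05. In the alternative fits Cdc42 passed in 2 of 18, with voom and with scaling by the trimmed mean of log ratios. Cdc42 was higher in every DASA-58 library, at 106% of DMSO (log2 fold change 0.09, SE 0.03, adjusted p = 0.098 by limma), and Rac2, the Rac of blood cells, was lower in every one, at 95.0%. Rac1 and Rhoa had log2 fold changes of 0.04 and -0.02.

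Their regulators held the other large change. Dock5 activates Rac and is needed for the sealing zone of osteoclasts. It was at 8.71, 8.40 and 8.89 FPKM in DMSO replicates 1, 2 and 3 and at 5.99, 5.57 and 5.87 FPKM in DASA-58 replicates 1, 2 and 3. The groups were far apart, with 1928 to 1970 fragments per DMSO library and 1233 to 1372 per DASA-58 library. The log2 fold change was -0.51 (SE 0.04, adjusted p = 0.0006 by limma), and Dock5 passed in all 18 alternative fits.

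The other 4 regulators did not pass, with Vav1 and Vav3 at an unadjusted p under 0.05 and Vav3 past the test under voom. Dock2, the related exchange factor of blood cells, was at 27.4, 27.9 and 29.2 FPKM with DMSO and 29.2, 27.9 and 28.1 FPKM with DASA-58. The Vav exchange factors were higher in every DASA-58 library, Vav1 at 106% and Vav3, the form known from osteoclasts, at 113% of DMSO (log2 fold changes 0.09 and 0.15, SE 0.04 and 0.06). Myo9b, a myosin that switches small GTPases off, had a log2 fold change of 0.02.

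The Tks proteins are scaffolds that Src phosphorylates in podosomes. Sh3pxd2a, which encodes Tks5, was at 3.39, 3.13 and 3.45 FPKM with DMSO and 3.15, 2.84 and 2.54 FPKM with DASA-58, so that the groups overlapped by 1 library (log2 fold change -0.17, SE 0.07, adjusted p = 0.17 by limma). Sh3pxd2b, which encodes Tks4, was at 20.0, 20.2 and 19.8 FPKM with DMSO and 20.9, 20.4 and 20.3 FPKM with DASA-58, at 103% of DMSO (log2 fold change 0.04, SE 0.03). Neither passed the test, also under voom, and 1 of them was at an unadjusted p under 0.05.

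Related genes were next compared with each other within each library, since a ratio does not depend on a factor that scales a whole library. The exact permutation test (two-sided) of 3 against 3 libraries cannot go below p = 0.10, which becomes 0.17 after Benjamini-Hochberg adjustment over the 12 pairs, so that no pair could pass. Of the 11 pairs described here, 6 had ratios that did not overlap between the groups, each with an exact permutation p of 0.10. In each of these 6 a gene of the pair also did not overlap by itself (Dock5, Cttn, Actn1, Ptk2b, Capg or Sh3pxd2b). Their ratios therefore partly restate the change of that gene.

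Among these 11 pairs, Dock5 and Dock2 were farthest apart. The ratio of Dock5 to Dock2 was 0.301 to 0.318 with DMSO and 0.200 to 0.209 with DASA-58, a log2 difference of -0.59 (SE 0.03).

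Cortactin has a blood cell relative, HS1, encoded by Hcls1, which was at 161, 160 and 155 FPKM with DMSO and 157, 157 and 157 FPKM with DASA-58. The log2 ratio of Cttn to Hcls1 was lower by -0.34 (SE 0.07) with DASA-58. The log2 ratios of Sh3pxd2a to Sh3pxd2b and of Actn1 to Actn4 were also lower, by -0.27 (SE 0.09) and -0.13 (SE 0.02). Those of Ptk2b to Ptk2 and of Gsn to Capg were higher by 0.13 (SE 0.05) and 0.07 (SE 0.02).

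In the other 5 pairs the groups overlapped. Rac1 was at 83.0, 81.1 and 85.3 FPKM with DMSO and 87.6, 85.2 and 83.5 FPKM with DASA-58, and Rac2 at 138, 143 and 138 FPKM and 131, 130 and 137 FPKM. Vav1 was at 50.6, 49.9 and 47.7 FPKM with DMSO and 52.2, 54.7 and 51.0 FPKM with DASA-58, and Vav3 at 7.39, 6.71 and 6.20 FPKM and 7.93, 7.50 and 7.44 FPKM. Both Vav genes were higher in every DASA-58 library, and their ratio overlapped. Was was at 70.8, 71.2 and 70.4 FPKM with DMSO and 73.2, 73.9 and 69.2 FPKM with DASA-58, and Wasl, which encodes the widely expressed N-WASP, at 4.89, 4.34 and 4.82 FPKM and 4.46, 4.71 and 4.61 FPKM.

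The last 2 of these pairs set Arp2/3 subunits beside their alternative forms. Arpc1b was at 245, 249 and 241 FPKM with DMSO and 246, 245 and 246 FPKM with DASA-58, and Arpc1a at 27.0, 27.8 and 27.1 FPKM and 27.4, 29.1 and 27.1 FPKM. Arpc5 was at 299, 299 and 299.9 FPKM with DMSO and 298, 291 and 292 FPKM with DASA-58, and Arpc5l at 9.34, 10.6 and 9.71 FPKM and 9.36, 11.0 and 10.3 FPKM. For both subunits the form on the list was the more abundant one in every library. Over the 5 pairs the log2 differences of the ratios ran from -0.08 (SE 0.07) for Vav1 to Vav3 to 0.11 (SE 0.05) for Rac1 to Rac2.

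**Figure D4:**
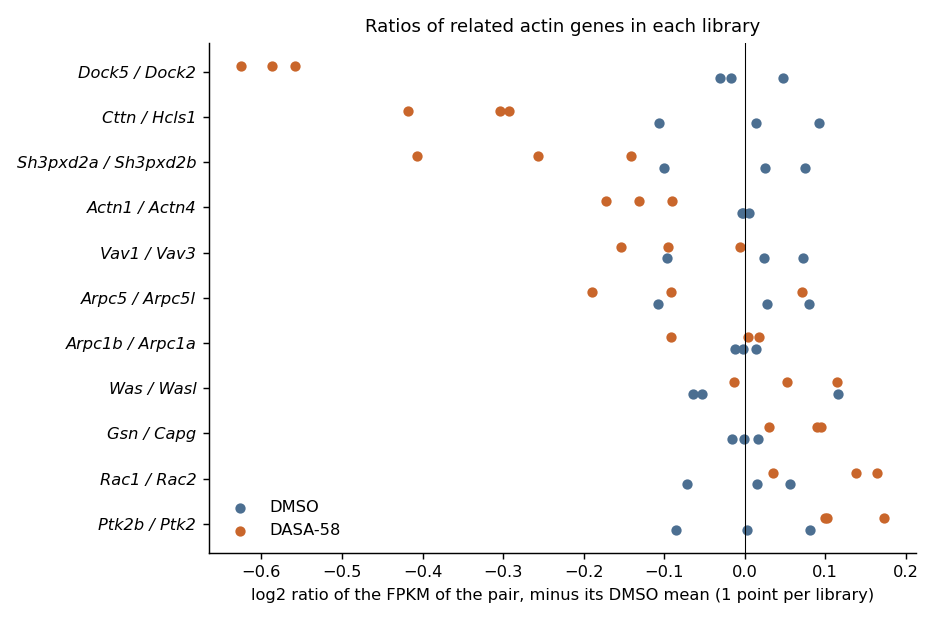
Each point is 1 library, and its horizontal position is the log2 ratio of the FPKM of the 2 genes of a pair, minus the mean of that ratio over the DMSO libraries. The DASA-58 points of Dock5 to Dock2 lie farthest to the left of the DMSO points (mean difference -0.59), and the points of both groups mix in the pairs of Arp2/3 subunits.

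A list of 145 other actin and adhesion genes was read in the same way. With DASA-58, 15 of the 136 that could be tested (11.0%) stood lower and 9 (6.6%) stood higher, beside 7.28% and 4.24% of all genes tested, and the median log2 fold change was -0.0001. Every DASA-58 library lay below every DMSO library in 20.6% of the 136 and above in 22.1%, beside 21.6% and 11.8% of all genes tested. The 2 chains of the vitronectin receptor, the integrin of the osteoclast sealing zone, were both lower. Itgb3 was at 5.49, 5.33 and 5.04 FPKM with DMSO and 2.28, 2.39 and 2.71 FPKM with DASA-58, at 46.5% of DMSO (log2 fold change -0.86, SE 0.06). Itgav was at 16.0, 13.9 and 15.4 FPKM with DMSO and 11.2, 10.9 and 10.7 FPKM with DASA-58, at 72.3% of DMSO (log2 fold change -0.43, SE 0.05). Itgb2, the integrin chain of leukocytes, was higher instead, at 110% (0.14, SE 0.03).

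Several of the other genes that were lower had modest levels. Scin (scinderin, a severing protein of the gelsolin family) was at 5.71, 4.90 and 5.27 FPKM with DMSO and 2.69, 2.69 and 3.15 FPKM with DASA-58, at 53.7% of DMSO. The myosins Myo1e and Myo10 were at 70.3% and 68.4% of DMSO, the adaptor Tns3 at 80.2% and the formin Inf2 at 82.5%. Smaller changes down were seen in Arhgef6, Tpm1, Mmp14, Pak1, Git1 and Actb, at 84.9% to 92.8% of DMSO, and Actb, the gene of beta-actin, was at 1955 to 2009 FPKM with DMSO and 1824 to 1838 FPKM with DASA-58. Bcar1 (the adaptor p130Cas), at 72.9% of DMSO, was also lower, but close to the threshold (adjusted p = 0.044 by limma). Its group means, 1.70 FPKM without and 1.24 FPKM with the activator, were near the filter of 1 FPKM. They rested on 139 to 146 fragments per DMSO library and 97 to 110 per DASA-58 library. Its calls in the alternative fits are not given here.

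The 9 genes that were higher were Rhoc, Tpm4, Lyn, Msn, Evl, Itgb2, Coro1b, Cap1 and Myl12b, at 107% to 117% of DMSO. Tpm4 is the tropomyosin known from podosomes of osteoclasts, and it rose from 142 to 155 FPKM to between 169 and 173 FPKM. Lyn is a Src family kinase, which rose from 39.1 to 41.5 FPKM with DMSO to between 45.0 and 46.3 FPKM with DASA-58, against the direction of Src. Of the 22 genes named here other than Bcar1, 11 kept their call in each of the 6 fits that left out 1 library. The other 11, which were Pak1, Itgb2, Tpm1, Myl12b, Actb, Cap1, Coro1b, Rhoc, Git1, Arhgef6 and Mmp14, lost it in at least 1. All 11 were lost without DASA-58 replicate 2, and all 11 without DASA-58 replicate 3, while 8 were lost without DMSO replicate 1, 6 without DASA-58 replicate 1, 5 without DMSO replicate 3 and 4 without DMSO replicate 2.

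**Figure D5:**
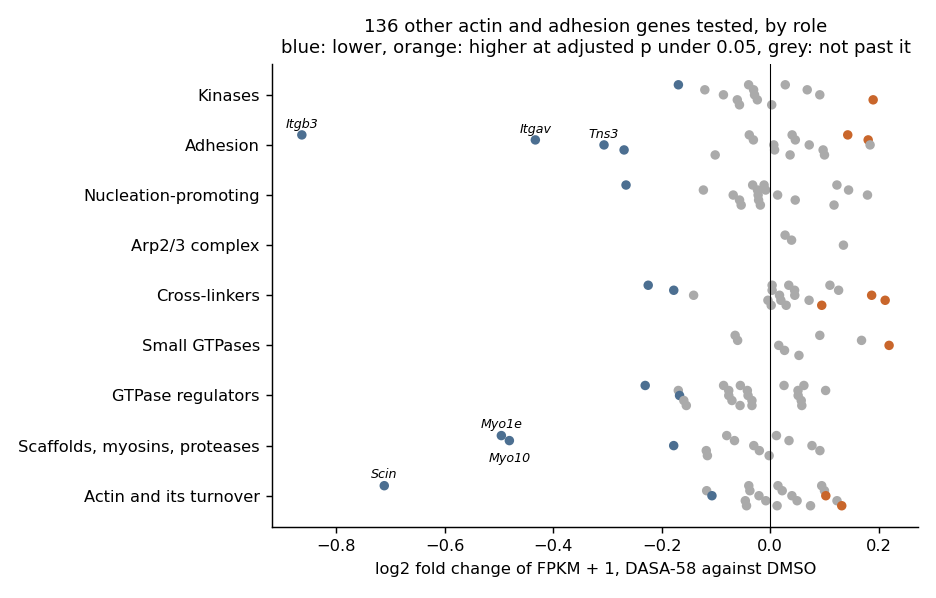
Each point is 1 of the 136 other actin and adhesion genes tested, placed by its log2 fold change of FPKM + 1 (DASA-58 against DMSO, 3 libraries per group) and by role, with small vertical offsets to separate points. Itgb3 (-0.86), Scin (-0.71), Myo1e (-0.50), Myo10 (-0.48), Itgav (-0.43) and Tns3 (-0.31) lie to the left of the other genes.

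Markers of several cell types also differed between the groups, in both directions. All 9 osteoclast markers tested were lower, at 46.5% (Itgb3) to 72.1% (Nfatc1) of DMSO, with Ctsk at 52.2% and Acp5 at 53.2%. Calcr, the marker under the filter, was at 33.7% of DMSO, and Itgb3 is also among the other actin genes above. The summed level of the whole list of 10 was 778 to 833 FPKM with DMSO and 449 to 467 FPKM with DASA-58. Src and Dock5, at 66.7% and 67.0%, lay within the range of the 9 markers tested, and Cttn, at 78.4%, was above it. Of 9 macrophage markers, 4 were higher (Adgre1, Mrc1, Mertk and Cd68) and 2 lower (Cd14 and Cx3cr1), with a sum of 16463 to 17303 FPKM against 17403 to 19715 FPKM. Most of this sum was Lyz2, at 14701 to 15513 FPKM with DMSO and 15447 to 17767 FPKM with DASA-58. Lyz2 overlapped between the groups and was not called (adjusted p = 0.11 by limma), and neither were Csf1r and Itgam. Of 7 neutrophil markers tested, 4 were lower (S100a8, S100a9, Camp and Ngp), with a sum of 174 to 177 FPKM against 137 to 143 FPKM, and Ly6g, which defines neutrophils, was at 0 in the DASA-58 libraries and at most 0.058 FPKM with DMSO. Of 5 stromal markers tested, 2 were higher (Acta2 and Sparc) and 3 were not called. Col3a1 was lower in every DASA-58 library, at 79.5% of DMSO (adjusted p = 0.13 by limma). Col1a1 and Col1a2, at 103% and 96.9%, overlapped between the groups. The stromal list summed to 93.6 to 97.7 FPKM with DMSO against 104 to 108 FPKM with DASA-58, with Acta2 as its largest term.

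Pf4, from the list for endothelial cells and megakaryocytes, was higher at 145% of DMSO, with a sum of 398 to 441 FPKM against 562 to 632 FPKM for its list, in which Pecam1, Cdh5, Itga2b and Gp9 were under 0.3 FPKM in every library and Kdr, under the filter, was at 0.97 to 1.06 FPKM with DMSO and 0.50 to 0.74 FPKM with DASA-58. The 1 lymphoid marker tested was not called, and the markers for dendritic and for erythroid and mast cells were all under the filter. The part of any of these cell types in the values of Src, Dock5, Cttn and Ptk2b was not tested.

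In the GENCODE annotation, exons of 14 of the 40 genes overlap exons of another gene, and whether the counting used strand is not given in the sources used here, so that their levels may include or miss such fragments. None of Src, Dock5, Cttn and Ptk2b is among the 14. The libraries of a group differed from each other by less than those of different groups, and no pair of libraries had the same values.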

How the data were processed

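RNA-seq libraries of BMMs, 3 with DMSO and 3 with DASA-58, were grouped by the treatment in the sample labels. The authors deposited FPKM for 23504 genes, that is fragments normalized to gene length and to the fragments counted in each library, with no further scaling visible in the values. The submitters' processing notes name HISAT2 2.1.0, HTSeq 0.6.0 and the build mm8. The use of strand, the annotation release and the treatment of fragments that match several places are not given in the sources used here. FPKM steps were whole fragments (within 0.001) for 22758 genes (96.8%), of which 21283 used gene lengths of the GENCODE GRCm38 annotation. Depth was 18191560 to 18968556 fragments, and 3 fragments are the limit set by a count of 0, for counting error only. All value columns were used, so 0 were unmapped.

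From these FPKM values log2(FPKM + 1) was compared with limma 3.58.1 (R 4.3.3; lmFit, eBayes with a trend, Benjamini-Hochberg) for 10965 genes, those whose mean reached 1 FPKM. Ratios were tested with exact permutation tests in SciPy 1.17.1. A fit with voom weights on the recovered fragments was an alternative. Other alternatives were pseudocounts of 0.1 and 5, no filter, a filter at a mean of 5 FPKM, 4 other scalings, no trend, no shrinkage, a block for the replicate number, and fits that leave out 1 library. The statistics were tested on simulated data. The fit does not use replicate numbers. The deviations of same-numbered libraries correlated at -0.015, 0.016 and -0.016, and the labels name no shared source. Values per library are given for listed genes past the threshold and for genes of described pairs, other listed genes are given by range within their role, and from the other actin genes at most 3 per role and direction with the smallest p are named. Bcar1 was named after its values were seen. The listed genes and all other lists were chosen with earlier results of these data known. The p-values of the ratios are adjusted over all 12 pairs, of which 1 is not reported here, as is 1 of the other actin genes. A planned comparison of protein sequences was not made.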

Additional observations from a re-analysis of the deposited data

How the results depend on the processing

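Of 18 alternatives, Src and Dock5 passed in all, and no gene named in the report with a call changed direction. Between 1 and 5 of the 40 genes changed sign in a setting with sign changes, none of them called. The count of lower listed genes was 5 with a mean of at least 5 FPKM, 5 with equal library totals and 9 with voom, and 2 to 4 when 1 library was left out. The count of higher listed genes was 0 without a filter, with equal totals, without the trend, without shrinkage, with the replicate block and in each fit with 1 library left out (0 to 0), 2 with the trimmed mean and 3 with voom. Their median log2 fold change was -0.0421 with equal totals, 0.0021 with median centring and 0.0037 with the trimmed mean, while the median of all genes tested moved to -0.0471, -0.0008 and -0.0031.

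Over all genes, lower genes numbered 372 without a filter, 504 with median centring, 508 with the trimmed mean, 515 without the trend, 314 without shrinkage, 1328 with voom and 387 to 603 with 1 library left out, against 798. Higher genes numbered 257 without a filter, 227 without shrinkage, 742 with voom and 272 to 375 with 1 library left out, against 465. The share of calls that were lower, 63.2%, was 49.5% with quantile normalization, 45.8% with median centring, 45.9% with the trimmed mean and 71.5% with equal totals. Of the other actin genes, 7 to 14 were lower and 4 to 8 higher with 1 library left out, and 4 were higher without a filter, 4 without the trend, 5 without shrinkage and 14 with voom. The cause of these shifts was not tested.

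The replicate numbers are not known to pair the libraries, and weak correlations of same-numbered libraries cannot exclude a shared source. With the replicate block 2 listed genes were lower and 0 higher, Cttn (adjusted p = 0.054 by limma) and Ptk2b (0.091) being the ones lost, and over all genes 579 were lower and 378 higher. Depth limits the rare transcripts most. Cttn, the called listed gene with the fewest fragments, had 337 to 477 per library. Fscn1, Sh3pxd2a and Vcl, which were not called, had 158 to 236, 252 to 329 and 296 to 392.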
